A study of Homo sapiens with 9 samples.

Results

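HCT116 is an established human colorectal carcinoma cell line, and its baseline was described here from the 3 RNA-seq libraries of cells that received a control siRNA. They were chosen by their label alone, as 3 of the 9 libraries of a series in which the other 6 came from HCT116 cells given 1 of 2 siRNAs against ORM1, the gene of an acute phase plasma protein. Those 6 libraries were not analysed here, and no contrast was made. Per the labels, the control cells had the genotype Control, the medium was McCoy's 5A with added bovine serum, the transfection reagent of the study was Lipofectamine RNAiMAX, total RNA was isolated with Trizol, and the batch was Day 3. The labels do not say whether the 3 control libraries came from separate cultures, so the spread between them may be technical. A single transfected line gives no untransfected baseline, so the effect of transfection itself cannot be told apart from the state of the line.

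Colonic epithelium renews itself from crypt stem cells that depend on WNT signals and mature into absorptive, mucus-secreting and hormone-secreting cells. HCT116 cells are known to carry a stabilising mutation of beta-catenin and to lack mismatch repair, and to grow as a poorly differentiated epithelium. Levels below are counts per 1000000 after scaling by library (CPM), and levels of different genes are set side by side only per kilobase of annotated exon (CPM per kb). A gene is called on at 1 CPM or more in each of the 3 libraries and absent below 0.1 CPM in each of them. Means carry the SD over the 3 libraries throughout.

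The 3 libraries held 65141295, 61984423 and 65837173 counts over 61806 gene identifiers. Of these identifiers, 14177 were on, 9631 lay between the thresholds and 37998 were absent, among them 30736 with 0 counts in all 3 libraries. A count of 0 allows a level of up to 0.0458 to 0.0484 CPM in a library, the value of 3 counts, and this limit covers counting error only. Among 19838 protein-coding genes, 12401 were on, which is 62.5%, and 4597 were absent, which is 23.2%. Those shares are the background for every list below. The 58 lists hold 1199 genes, with 660 on, 233 between the thresholds and 306 absent.

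The counts were concentrated in few genes. The 100 highest genes took 22.3% ± 0.0862 of the counts and the 1000 highest took 49.8% ± 0.175. Mitochondrially encoded genes, which supply subunits of the respiratory chain, took 8.41% ± 0.0880 of the counts, and nuclear protein-coding genes took 89.3% ± 0.0945. Long non-coding RNA genes took 1.03% ± 0.00466, with 951 of 14744 on, and small RNA genes took 0.0104% ± 0.000303, with 6 of 7041 on. Among nuclear protein-coding genes that were on, the median level was 6.503 CPM per kb, with quartiles at 2.70 and 14.4 CPM per kb, and 239 genes reached 100 CPM per kb.

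With the union of annotated exons as length, the highest nuclear protein-coding gene per length was ACTG1, cytoplasmic gamma-actin, at 1816 ± 7.53 CPM per kb. That length was 2993 bases for ACTG1 and 5948 for EEF1A1. The SD does not cover the choice of length, so the order of these genes may depend on it. EEF1A1, a translation elongation factor with many near-identical pseudogenes, followed at 1698 ± 49.8 CPM per kb, and GAPDH, a glycolytic dehydrogenase, at 1659 ± 57.1 CPM per kb. The next gene, the chaperone HSP90AB1, was lower at 1060.4 ± 13.6 CPM per kb. The 15 highest also held both ferritin subunits, with 1018 ± 51.3 CPM per kb for FTL and 587 ± 7.73 CPM per kb for FTH1, which together store iron. HMGA1, an architectural chromatin protein abundant in embryonic and tumour cells, stood at 976 ± 9.23 CPM per kb. The actin-binding genes among them were TMSB10, a thymosin, at 1052 ± 87.1 CPM per kb and EZR, the membrane linker ezrin, at 679 ± 6.52 CPM per kb. RPS2 and RPS12 encode ribosomal proteins, EEF2 encodes an elongation factor, ENO1 and ALDOA encode glycolytic enzymes and KRT19 encodes a keratin, and these 6 lay between 576 and 896 CPM per kb. Many of these genes, GAPDH, the ferritins, ribosomal proteins and keratins among them, have processed pseudogenes, and how the counting treated reads shared with those is unknown.

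By total signal, without regard to length, the 10 highest nuclear genes also held AKAP12, FAT1, PKM and HSP90AA1, which were not among the 15 highest per length. AKAP12, a scaffold that binds protein kinase A, had 4306, 4213 and 4224 CPM, and FAT1, a giant protocadherin, had 2626, 2444 and 2462 CPM. PKM, a pyruvate kinase, had 2802, 2844 and 2835 CPM, and HSP90AA1, a chaperone, had 2699.9, 2755 and 2732 CPM. Per length FAT1 stood at 155 ± 6.21 CPM per kb and AKAP12 at 486 ± 5.78 CPM per kb. The highest mitochondrial message was MT-CO1, a subunit of cytochrome oxidase, at 17952, 18151 and 17828 CPM. Among long non-coding RNAs the highest per length were SNHG29, at 86.7 ± 1.704 CPM per kb, and NORAD, a decoy for Pumilio proteins, at 61.8 ± 0.612 CPM per kb. UCA1, first described in urothelial carcinoma, had 218, 209 and 218 CPM. Its 3 libraries lay close together.

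The targeted gene of the series was itself near the threshold in control cells. ORM1 had 63, 56 and 59 counts, or 0.962, 0.904 and 0.9001 CPM, and ORM2, its near-identical neighbour, had 0.5804, 0.6296 and 1.01 CPM. How shared reads were divided between the pair is not given in the sources used here. Neither gene was on by the rule used.

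Whether a gene was on went with the number of CG dinucleotides before its start. Promoters rich in CG, the CpG islands, lie at most housekeeping genes and at many developmental genes, while tissue-restricted genes often lack them. RefSeq (GRCh38.p14) gave exactly 1 start for 11305 nuclear protein-coding genes, and CG was counted in the 250 bases before it, a count that is the same on both strands. The median was 22 CG for genes on, 7 for genes between the thresholds and 4 for absent genes. At least 15 CG were present in 79.2% of genes on, in 21.1% of absent genes and in 59.0% of all 11305. The share of genes on was 12.7% with 0 to 4 CG, 66.3% with 10 to 14 and 87.1% with 30 or more. The motif TATAAA on the gene's strand, starting 16 to 45 bases before the start, stood in 1.70% of genes on, in 10.2% of absent genes and in 4.55% of all. Among the 145 genes of at least 100 CPM per kb the share was 11.7%, and among the 6919 other genes on it was 1.49%. These shares describe the windows before the RefSeq starts, whether or not those starts are in use in these cells, and are not tests.

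**Figure D1:**
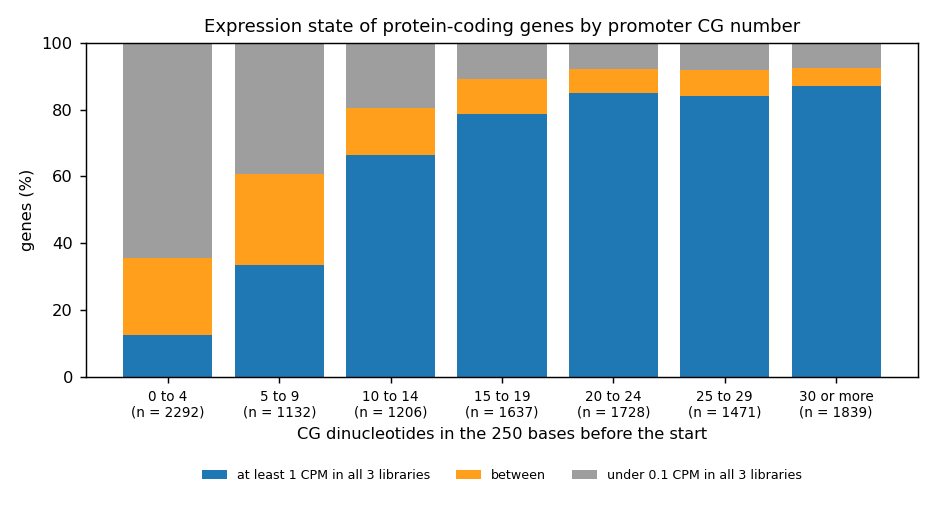
Share of 11305 nuclear protein-coding genes (%, vertical axis) that were on, between the thresholds or absent in control siRNA HCT116 cells, by the number of CG dinucleotides in the 250 bases before the RefSeq start. The blue part (genes on) is 12.7% at 0 to 4 CG and 87.1% at 30 or more, and the grey part (absent) is 64.4% and 7.67% in the same bins, with little change from 20 CG upward.

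The lists hold genes of every combination, and 4 were picked after their values were seen to show them. SLC2A1, the basal glucose transporter of most cells, was on at 1152, 1155 and 1167 CPM, with 24 CG in the 250 bases. SLC2A2, the glucose transporter of liver and beta cells, had 0 counts and 2 CG. WIF1, a secreted WNT inhibitor, had 0 counts despite 27 CG. KRT8, a keratin of simple epithelia, was on at 1947, 2054 and 2079 CPM with 1 CG. Of the list genes with 1 start, 37 of 163 absent genes had at least 15 CG, as WIF1 did, and 31 of 339 genes on had under 5, as KRT8 did. Whether transcription began at the RefSeq start in these cells was not tested, so a window may not be the promoter in use. The last 100 bases before each start are given 5′ to 3′ on the gene's strand, with each CG in capitals. They lie on the minus strand at chr1:42958869-42958968 (SLC2A1), chr3:171026721-171026820 (SLC2A2), chr12:65121306-65121405 (WIF1) and chr12:52926470-52926569 (KRT8).
SLC2A1: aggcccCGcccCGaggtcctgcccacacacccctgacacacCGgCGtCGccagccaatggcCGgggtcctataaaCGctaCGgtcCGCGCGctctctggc
SLC2A2: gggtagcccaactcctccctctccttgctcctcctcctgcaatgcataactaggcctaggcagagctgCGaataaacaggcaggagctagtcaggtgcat
WIF1: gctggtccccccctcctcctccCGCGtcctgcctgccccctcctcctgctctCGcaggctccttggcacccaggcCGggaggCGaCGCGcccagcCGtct
KRT8: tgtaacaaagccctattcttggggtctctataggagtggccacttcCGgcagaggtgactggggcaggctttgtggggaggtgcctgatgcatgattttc
The capitals are spread over the SLC2A1 and WIF1 windows, which hold 11 and 8 CG, and the SLC2A2 and KRT8 windows hold 1 each. The SLC2A1 window also holds the motif TATAAA.

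Genes shared by simple epithelia were on at high level. All 16 general epithelial genes were on, with a median of 27.2 CPM per kb, against 2.08 CPM per kb over all nuclear protein-coding genes. The simple-epithelium keratins led, with 576 ± 21.8 CPM per kb for KRT19, 295 ± 10.2 CPM per kb for KRT8 and 256 ± 12.1 CPM per kb for KRT18. EPCAM, the surface adhesion protein by which carcinoma cells are often sorted, had 141, 147 and 145 CPM. CDH1, which encodes E-cadherin of the adherens junction, had 71.4, 70.4 and 67.7 CPM, and CDH3, which encodes P-cadherin, had 151, 160.2 and 154 CPM. Per length CDH3 stood above CDH1, at 24.9 ± 0.726 CPM per kb against 11.3 ± 0.314 CPM per kb. Tight-junction genes were on, with 37.8 ± 1.08 CPM per kb for claudin gene CLDN4 and 15.2 ± 0.858 CPM per kb for the scaffold gene TJP1. The splicing factor of epithelial isoforms, ESRP1, had 101, 96.7 and 104 CPM.

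Genes that mark intestine were at or near 0. Of 12 intestinal identity genes, 1 was on and 4 were absent. The gene on was USH1C, a scaffold of brush-border microvilli, at 22.99, 25.02 and 23.4 CPM. VIL1, which encodes the microvillus protein villin, had 0 counts in all 3 libraries, and so did CEACAM5, the carcinoembryonic antigen, its relative CEACAM6, and PHGR1, a small protein of mature colonocytes. CDH17, the liver-intestine cadherin, had 0.107, 0.274 and 0.198 CPM, and KRT20, a keratin of mature surface cells, had 0.244, 0.613 and 0.427 CPM. The label of a colorectal cancer cell thus met epithelial markers at high level and intestinal surface markers at or near 0. In bulk RNA a low level in all cells and a high level in few cells cannot be told apart.

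Transcription factors of gut varied in level. Of 22, 16 were on and 2 were absent, against 62.5% on and 23.2% absent over all protein-coding genes. Their median was 1.05 CPM per kb, against 2.08 CPM per kb over all nuclear protein-coding genes, and at a threshold of 1 CPM per kb 10 of them were on. SOX9, a factor of crypt progenitors, was highest at 58.7 ± 0.805 CPM per kb, followed by TCF7L2, the WNT effector TCF4, at 24.1 ± 1.59 CPM per kb and KLF5, a crypt proliferation factor, at 20.9 ± 1.18 CPM per kb. CDX2, the master regulator of hindgut identity, had 11.8, 14.04 and 12.5 CPM, while its paralogue CDX1 had 0 counts. GATA6 had 13.4, 13.7 and 11.8 CPM, whereas GATA4, its paralogue of proximal intestine, had 0 counts. The hepatic and intestinal factor HNF4A had 6.67, 5.89 and 6.32 CPM.

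Intestinal stem cell genes included some at high level and some at 0. Of 20, 15 were on and 4 were absent. CD44, a hyaluronan receptor and WNT target, led at 47.8 ± 1.38 CPM per kb. The feedback inhibitors of WNT signalling were on, with 31.9, 31.7 and 29.8 CPM for AXIN2, 129, 133 and 125 CPM for the receptor ligase gene RNF43 and 19.3, 21.6 and 21.97 CPM for NOTUM, a secreted WNT deacylase. LGR5, the R-spondin receptor that marks cycling crypt stem cells, had 0.0305, 0.2099 and 0.06102 CPM. ASCL2, the transcription factor of those cells, and OLFM4, a secreted marker of them, had 0 counts. PROM1, which encodes CD133, had 29.6, 32.00 and 30.2 CPM.

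Genes of mature intestinal cell types were largely off. Of 20 absorptive genes, 3 were on and 11 absent. Those on were CA2, a carbonic anhydrase, at 33.2, 34.2 and 35.1 CPM, DPP4, a brush-border peptidase, at 13.1, 10.8 and 12.7 CPM and SLC15A1, the peptide transporter PEPT1, at 6.03, 7.38 and 6.33 CPM. FABP1 and FABP2, the fatty acid binding proteins of enterocytes, CA1, CA4, MS4A12, GUCA2A and the sucrase gene SI had 0 counts. Of 14 goblet cell genes, 3 were on at low level, the highest per length being KLK1, a tissue kallikrein, at 2.06, 1.78 and 1.57 CPM. MUC2, the gel-forming mucin of colon, had 0, 0.145 and 0.168 CPM, and TFF3, AGR2, CLCA1 and SPINK4 had 0 counts. Of 14 enteroendocrine genes, 2 were on and 10 were absent, including the granule genes CHGA, at 0.0458, 0 and 0 CPM, and CHGB, at 0. None of the 8 Paneth cell genes was on and 6 were absent, among them the defensins DEFA5 and DEFA6 at 0. Of 10 tuft cell genes, 4 were on, namely PTGS1, DCLK1, ALOX5 and AVIL, with 15.7, 17.3 and 18.1 CPM for PTGS1, the constitutive cyclooxygenase. POU2F3, the defining factor of tuft cells, had 0.504, 0.113 and 0.397 CPM.

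**Figure D2:**
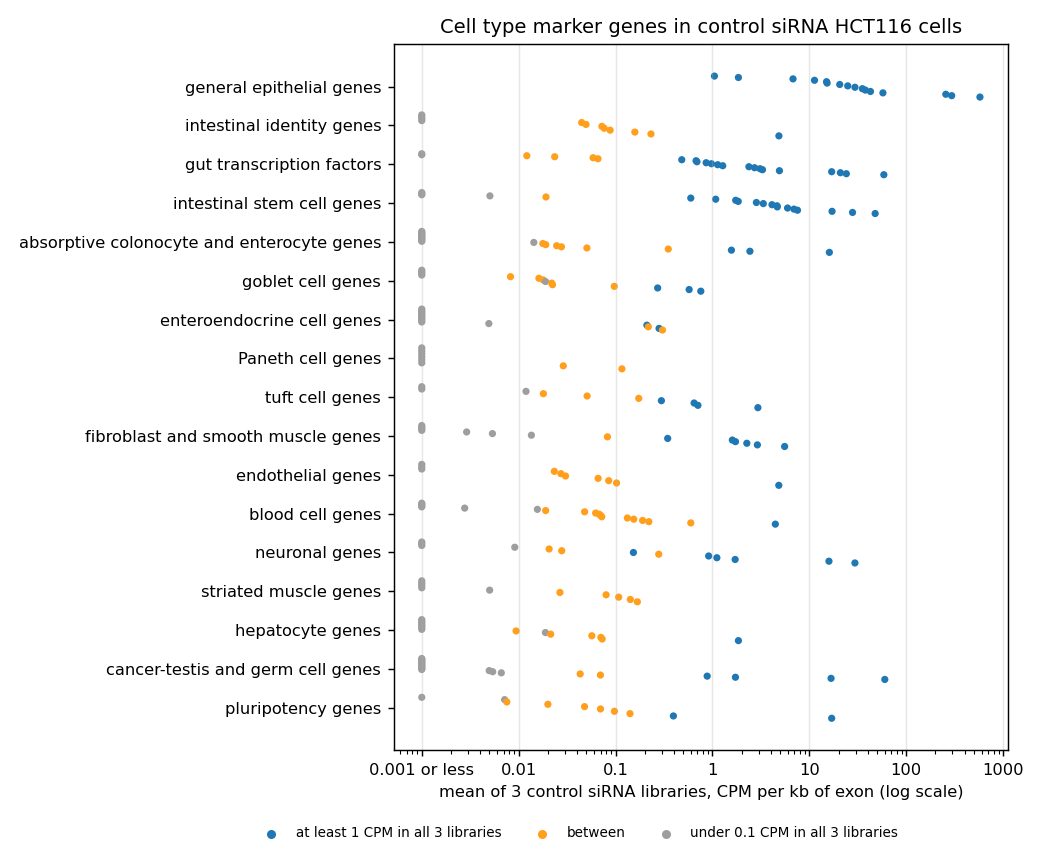
Level of each marker gene in control siRNA HCT116 cells, as the mean of 3 libraries in CPM per kb of exon on a log axis, for 17 lists of cell type genes (rows). Each point is 1 gene, coloured by whether it was on, between the thresholds or absent, and values of 0.001 or less are drawn at the left edge. All 16 general epithelial genes lie to the right, and most genes of mature intestinal cell types lie at the left edge or below 0.1.

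Markers of tissues other than epithelium were mostly absent or low, with single genes standing out. Of 18 blood cell genes, 1 was on, the lysosomal glycoprotein gene CD68 at 9.88, 9.91 and 9.47 CPM, and PTPRC, which encodes the pan-leukocyte protein CD45, had 0, 0 and 0.0763 CPM. Of 10 endothelial genes, 1 was on, the adhesion gene ESAM at 14.1, 13.7 and 14.5 CPM, and CDH5, which encodes VE-cadherin, had 0 counts. Of 10 striated muscle genes none was on and 5 were absent. Of 14 hepatocyte genes, 1 was on, the antitrypsin gene SERPINA1 at 8.72, 9.69 and 8.85 CPM, and ALB, which encodes albumin, had 0.321, 0.355 and 0.06102 CPM.

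Fibroblast and neuronal lists held larger shares of genes on than the blood, endothelial, muscle and hepatocyte lists. At 42.9% and 46.2% these shares were still below the 62.5% of all protein-coding genes. Of 14 fibroblast and smooth muscle genes, 6 were on and 7 were absent. COL1A1, one chain of type I collagen, had 59.4, 53.01 and 51.3 CPM, whereas COL1A2, the other chain of the same trimer, had 0 counts, as had DCN, THY1 and PDGFRA. VIM, the intermediate filament of mesenchymal cells, had 11.9, 10.7 and 12.4 CPM and DES, the filament of muscle, had 7.07, 6.33 and 8.101 CPM. Of 13 neuronal genes, 6 were on and 4 were absent. TUBB3, a neuronal beta-tubulin, had 122, 138 and 133 CPM and SYT1, the calcium sensor of synaptic vesicles, had 104, 104 and 102 CPM. The neurofilament genes NEFL and NEFM and the RNA-binding gene ELAVL4 had 0 counts.

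Germ cell and pluripotency genes were on in single cases. Of 20 cancer-testis and germ cell genes, 4 were on and 14 absent. MAGEA3 had 102, 112 and 108 CPM and MAGEA6 had 3.79, 2.89 and 2.97 CPM, and because the pair is near-identical in sequence their division is uncertain. PRAME, a tumour antigen and nuclear receptor corepressor, had 63.2, 61.9 and 64.7 CPM. MAGEA1, MAGEA4 and CTAG1B had 0 counts. Of 10 pluripotency genes, 2 were on, SALL4 at 2.001, 2.66 and 2.18 CPM and KLF4, which intestine also expresses, at 63.9, 59.5 and 63.3 CPM. POU5F1, SOX2 and NANOG lay at 0.408, 0.1202 and 0.0407 CPM on average.

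HOX genes, which record the position of a tissue along the body axis, differed by cluster, and 26 of 39 were on. The HOXB cluster on chromosome 17 summed to 92.4 ± 0.614 CPM per kb, with 9 of 10 genes on. The HOXA cluster on chromosome 7 summed to 53.9 ± 1.79 CPM per kb, with 10 of 11 on. HOXC on chromosome 12 summed to 10.4 ± 0.581 CPM per kb, with 6 of 9 on, and HOXD on chromosome 2 to 2.44 ± 0.210 CPM per kb, with 1 of 9 on. In the HOXB cluster HOXB6, HOXB7, HOXB8 and HOXB9 formed a plateau at 17.3, 16.1, 16.4 and 17.4 CPM per kb. Their ranges over the libraries overlapped in every pair but HOXB7 and HOXB9. In the HOXA cluster HOXA9 stood out at 18.9 ± 0.786 CPM per kb, above HOXA7 at 7.003 ± 0.0909 CPM per kb and HOXA10 at 6.91 ± 0.249 CPM per kb. HOXD8 was the HOXD gene on, at 5.19, 5.09 and 4.78 CPM. HOXB13, a posterior gene of rectum and prostate, had 11.98, 11.7 and 12.1 CPM. Genes of a HOX cluster overlap one another and their antisense RNAs, and the strand setting of the counting is not given in the sources used here.

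**Figure D3:**
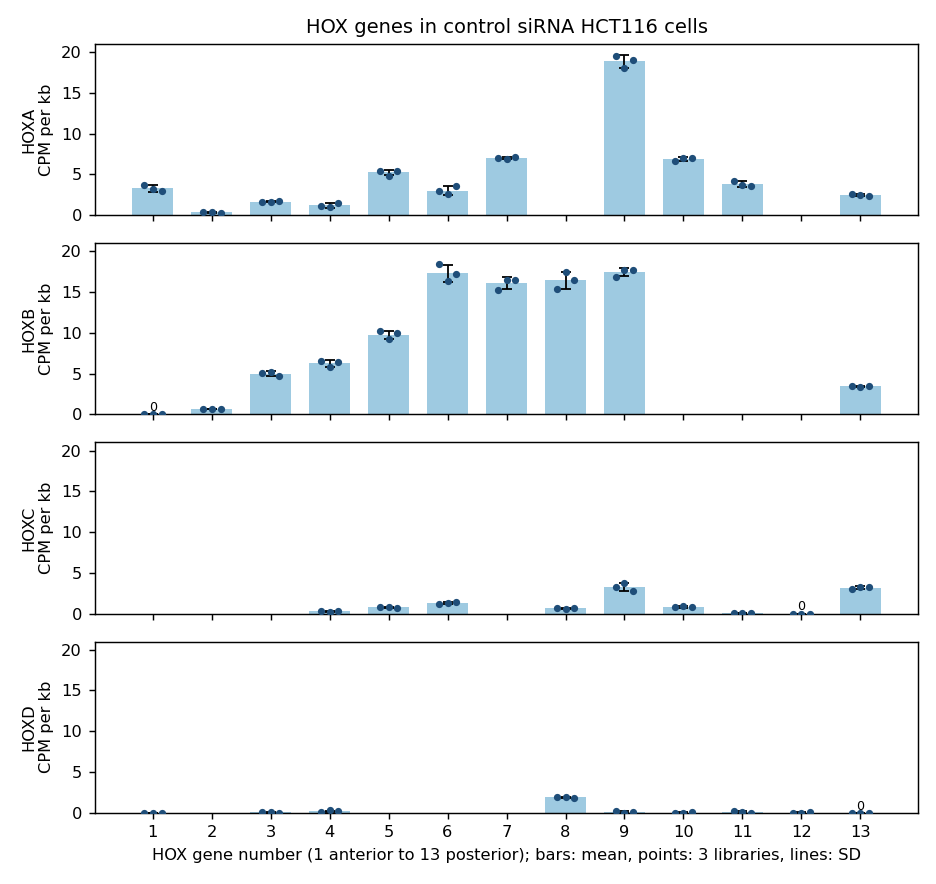
HOX gene levels in CPM per kb (vertical axis, the same scale in each panel) by gene number, 1 panel per cluster. Bars are means of 3 control siRNA libraries, points the libraries and lines the SD, a 0 marks a gene with no counts, and numbers without a point are not in the list. HOXB6 to HOXB9 and HOXA9 form the highest group, and HOXD holds a single visible bar.

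Receptors of growth factors differed widely in level. Of 55 receptor tyrosine kinases, 33 were on and 12 absent, with a median of 1.38 CPM per kb. EPHA2, an ephrin receptor, was highest at 110.2 ± 1.303 CPM per kb, followed by MET, the receptor of hepatocyte growth factor, at 55.9 ± 0.267 CPM per kb. The next were DDR1, a collagen receptor, at 26.8 ± 0.126 CPM per kb and AXL, the receptor of GAS6, at 21.8 ± 0.554 CPM per kb. EGFR had 231, 229 and 213 CPM, and its family members ERBB2 and ERBB3 had 81.9, 80.8 and 80.2 CPM and 30.2, 30.3 and 31.4 CPM, while ERBB4 had 0.0458, 0.178 and 0.427 CPM. Per length EGFR stood at 17.9, ERBB2 at 7.85 and ERBB3 at 3.39 CPM per kb. All 4 fibroblast growth factor receptors were on, FGFR4 highest per length at 15.8 ± 0.535 CPM per kb. The platelet-derived growth factor receptor PDGFRA, the vascular receptors FLT1 and TEK and the neurotrophin receptor NTRK2 had 0 counts. KIT, the stem cell factor receptor, had 0, 0 and 0.06102 CPM.

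Below the receptors, nearly the whole RAS, RAF, MAPK and PI3K core was on, with 30 of 31 genes and a median of 8.46 CPM per kb. Per length the small GTPase gene NRAS stood at 29.8 ± 0.6705 CPM per kb and its relative HRAS at 21.5 ± 0.304 CPM per kb. PIK3CA, the catalytic subunit of PI3-kinase often mutated in colon cancer, stood at 3.66 ± 0.287 CPM per kb and its paralogue PIK3CB at 9.81 ± 0.252 CPM per kb. PIK3CG, the leukocyte paralogue, was the absent member. AKT1, a kinase downstream of PI3-kinase, stood at 16.5 ± 0.322 CPM per kb.

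In the WNT pathway nearly the whole intracellular core was on. The shares on were 57.9% of ligand genes and 60.0% of receptor and inhibitor genes, near the 62.5% of all protein-coding genes. Of 17 core genes, 16 were on. CTNNB1, which encodes beta-catenin, had 375, 363 and 352 CPM, and APC, the scaffold of its destruction complex, had 53.7, 49.04 and 49.03 CPM. LEF1, a nuclear partner of beta-catenin, was the exception with 0, 0 and 0.0153 CPM, while its relatives TCF7L2, TCF7L1 and TCF7 were on. Of 19 ligand genes, 11 were on, led per length by WNT16 at 81.7, 84.04 and 80.3 CPM, and the next per length was WNT6 at 6.81, 7.22 and 6.87 CPM. WNT5A, a ligand of the non-canonical branch, had 0 counts. Of 25 receptor and inhibitor genes, 15 were on and 8 absent. DKK1, which blocks the LRP co-receptors, had 176, 181 and 173 CPM, and per length it was the highest of the list at 80.1 ± 1.87 CPM per kb. The co-receptors LRP5 and LRP6 had 17.7 ± 0.997 CPM per kb and 4.39 ± 0.146 CPM per kb. The inhibitors SFRP1, SFRP2, SFRP5, WIF1 and DKK4 had 0 counts.

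Of 14 receptors for TGF-beta, BMP and activin, 12 were on, and all 8 of 8 SMAD genes were. TGFBR2, whose coding repeat is a known frameshift target in mismatch repair deficient tumours, had 72.6, 64.1 and 66.5 CPM, which shows its RNA level and not its protein. BMPR1B was absent, at 0, 0 and 0.06102 CPM. In the Notch pathway 12 of 16 genes were on. The ligand JAG2 stood at 19.6 ± 1.01 CPM per kb, NOTCH1 at 10.3 ± 0.335 CPM per kb, NOTCH2 at 9.89 ± 0.251 CPM per kb and NOTCH3 at 9.38 ± 0.374 CPM per kb, 3 receptors of like level. The target HES1 had 21.8, 22.04 and 22.8 CPM and HES5 had 0 counts. In the Hedgehog pathway 6 of 11 were on, and the ligands SHH and IHH had 0.705 and 0.06105 CPM on average. The effectors GLI2 and GLI1 had 24.1, 24.5 and 22.6 CPM and 4.41, 4.39 and 5.43 CPM, and GLI3 had 0 counts.

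Of 48 nuclear receptors, 30 were on and 11 absent. The orphan receptor NR2F2 led at 36.1 ± 0.166 CPM per kb, followed by NR1D1, the clock repressor REV-ERB alpha, at 29.8 ± 0.368 CPM per kb. The end of NR1D1 overlaps that of THRA on the opposite strand, so its level is uncertain. VDR, the vitamin D receptor, had 20.4, 18.9 and 16.5 CPM, and PPARG, a lipid-sensing receptor of colon, had 18.7, 19.1 and 18.7 CPM. The steroid receptors ESR1 and PGR had 0.289 and 0 CPM on average. NR1I2, the xenobiotic receptor PXR, had 0.0305, 0 and 0.0305 CPM, and NR1H4, the bile acid receptor FXR, had 0 counts.

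Of 44 cytokine receptors 29 were on, which is 65.9%, near the 62.5% of all protein-coding genes. TNFRSF1A, the main receptor of TNF, stood at 29.1 ± 0.278 CPM per kb and OSMR, the oncostatin M receptor, at 25.02 ± 1.01 CPM per kb. All 4 chains of the interferon receptors for type I and gamma interferon were on, with IFNAR1 at 64.4, 63.3 and 65.4 CPM and IFNGR1 at 34.8, 36.8 and 37.5 CPM. Chains restricted to lymphocytes, such as IL2RA and IL2RG, had 0 counts. Of 25 innate sensors and adaptors, 14 were on. In the cytosolic DNA pathway CGAS, the sensor, had 0.122, 0.0646 and 0 CPM and STING1, the adaptor downstream of it, had 19.7, 19.6 and 20.02 CPM. In the RNA pathway both the sensor RIGI, at 14.5, 16.7 and 17.5 CPM, and the adaptor MAVS, at 227, 219 and 225 CPM, were on. TLR4, the receptor of bacterial lipopolysaccharide, and AIM2, a sensor of cytosolic DNA, had 0 counts, and PYCARD, the inflammasome adaptor ASC, had 0, 0.194 and 0.168 CPM.

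Of 31 receptors for lipids, proteases and adenosine, 14 were on. F2RL1, the trypsin-activated receptor PAR2, was highest at 78.7 ± 1.73 CPM per kb. ADORA2B, a low-affinity adenosine receptor, stood at 20.4 ± 0.527 CPM per kb, above ADORA1 at 1.87 ± 0.0737 CPM per kb. LGR4, a broadly expressed R-spondin receptor, had 13.7, 14.4 and 13.3 CPM, against 0.1005 CPM on average for LGR5.

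All 10 of 10 mismatch repair genes were on at the RNA level. MSH3, which recognises longer loops, had 4.41, 4.94 and 5.54 CPM. It was the lowest of the list per length at 1.05 ± 0.119 CPM per kb, and MSH6, which recognises single mismatches, stood at 7.16 ± 0.169 CPM per kb. The ratio of MSH6 to MSH3 per length was 6.85 ± 0.719. Of 21 tumour suppressors and oncogenes, 20 were on. CCND1, which encodes cyclin D1, had 1592, 1584 and 1556 CPM, its paralogue CCND3 had 51.9, 52.3 and 51.7 CPM and CCND2 had 0 counts. MYC had 221, 222 and 221 CPM, and CDKN1A, the cyclin-dependent kinase inhibitor p21, had 565, 573 and 589 CPM.

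In metabolism, glycolytic genes were among the highest of the transcriptome. The 24 glycolytic isozymes took 2.12% ± 0.0352 of all counts, and 17 of them were on. Of 16 hexose transporters, 8 were on. At most steps a single isozyme stood well above the others. SLC2A1 exceeded SLC2A3, the neuronal-type transporter, 12.9 ± 0.380 times per length, and SLC2A3 can share reads with its copy SLC2A14. ENO1 exceeded ENO2, the neuronal enolase, 9.34 ± 0.298 times, and ALDOA exceeded ALDOC 8.27 ± 0.0926 times. PFKP exceeded PFKL, the liver form, 6.24 ± 0.142 times. PKM, given above, had a relative near 0, PKLR, the liver and red cell pyruvate kinase, with 0, 0.0807 and 0 CPM.

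The exceptions were hexokinase and lactate dehydrogenase. HK2, the inducible hexokinase, and HK1 were close, with a ratio per length of 1.14 ± 0.0229. LDHA and LDHB were close too, with a ratio of 1.21 ± 0.0285, and in each library LDHA was the higher per length. The SD does not cover the choice of exon length, so the order within pairs this close may depend on it. For export of lactate, SLC16A3, the transporter MCT4, exceeded SLC16A1, the transporter MCT1, 3.15 ± 0.0914 times. Of 10 lactate genes, 8 were on. Of 8 genes of the reverse route, gluconeogenesis, 3 were on and 4 absent. PCK1, the cytosolic carboxykinase, and G6PC1, the glucose-6-phosphatase of liver, had 0 counts, and FBP1, the fructose bisphosphatase, had 0.0611, 0 and 0 CPM. PCK2, the mitochondrial carboxykinase, had 19.6, 24.6 and 22.8 CPM.

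**Figure D4:**
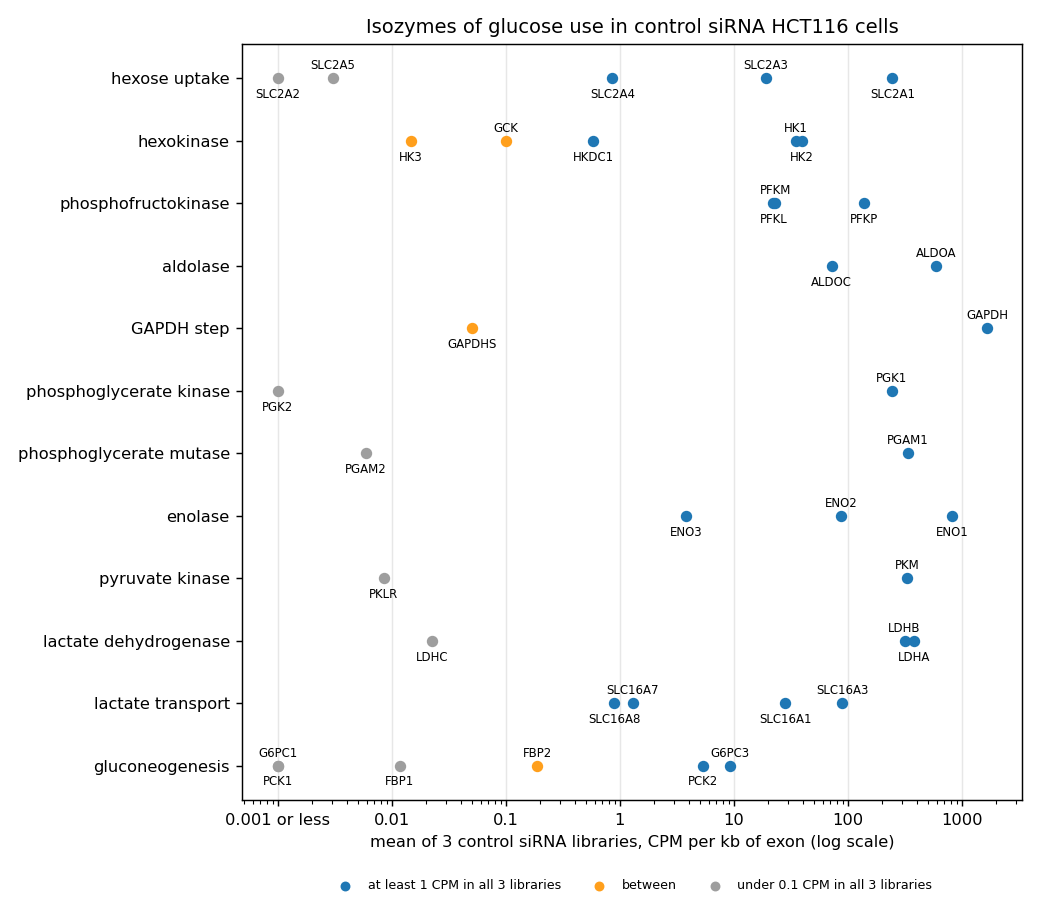
Isozymes and transporters of glucose use in control siRNA HCT116 cells, with 1 row per step and each gene at its mean of 3 libraries in CPM per kb on a log axis, and values of 0.001 or less drawn at the left edge. GAPDH, at 1659 CPM per kb, is the rightmost point, pairs close together appear at hexokinase and lactate dehydrogenase, and PCK1 and G6PC1 lie at the left edge.

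The mitochondrial and biosynthetic enzymes were on almost throughout. Of 26 citric acid cycle genes, 25 were on, and the one at 0 was PDHA2, the testis form of pyruvate dehydrogenase. MDH2, the mitochondrial malate dehydrogenase, was highest at 75.05 ± 2.02 CPM per kb. Of 21 pentose phosphate, serine and one-carbon genes, 19 were on. TYMS, thymidylate synthase, stood at 67.2 ± 2.89 CPM per kb and MTHFD2, the mitochondrial folate dehydrogenase of dividing cells, at 64.8 ± 2.14 CPM per kb. PHGDH, the entry enzyme of serine synthesis, stood at 10.4 ± 0.539 CPM per kb and the next enzyme, PSAT1, at 62.3 ± 2.39 CPM per kb.

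Of 20 genes of glutamine, urea and polyamine metabolism, 16 were on. ODC1, the rate-limiting enzyme of polyamine synthesis, stood at 108 ± 2.28 CPM per kb and SAT1, which acetylates polyamines, at 142 ± 1.29 CPM per kb. In the urea cycle CPS1 had 39.3, 38.9 and 43.2 CPM and ASS1 had 36.05, 33.4 and 34.9 CPM, and OTC and ARG1 had 0.0967 and 0.0204 CPM on average. Of 23 amino acid transporters, 16 were on. SLC7A5, the leucine transporter LAT1, was highest at 144 ± 3.54 CPM per kb, with its partner SLC3A2 at 52.5 ± 0.699 CPM per kb. SLC1A5, the glutamine transporter ASCT2, stood at 75.3 ± 1.696 CPM per kb. SLC6A19, the neutral amino acid transporter of small intestine, had 0 counts.

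Fatty acid synthesis was on at high level. Of 26 fatty acid enzymes, 23 were on. SCD, the desaturase, was highest at 224 ± 1.86 CPM per kb and exceeded SCD5 13.9 ± 0.0688 times per length. FASN, the synthase, stood at 87.9 ± 2.14 CPM per kb and ACLY, which makes cytosolic acetyl-CoA, at 68.2 ± 0.802 CPM per kb. CPT1A, the entry enzyme of fatty acid oxidation, stood at 32.5 ± 0.744 CPM per kb. Of 23 genes of binding, uptake and storage, 16 were on. FABP5 was the high binding protein at 52.5 ± 3.51 CPM per kb, and the lipid droplet coats PLIN3 and PLIN2 stood at 112 ± 4.11 CPM per kb and 40.2 ± 0.305 CPM per kb. CD36, a fatty acid receptor, had 0.2597, 0.0646 and 0.06102 CPM.

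Drug metabolism was sparse, with 14 of 35 genes of xenobiotic oxidation and conjugation on and a median of 0.125 CPM per kb. GSTP1, a glutathione transferase, stood at 134 ± 1.61 CPM per kb and NQO1, a quinone reductase, at 87.5 ± 2.36 CPM per kb. CYP3A4, the main drug oxidase of liver and intestine, and CES1, the liver carboxylesterase, had 0 counts, while CYP3A5 had 5.41, 5.12 and 5.25 CPM and CES2, the intestinal carboxylesterase that activates irinotecan, had 37.3, 39.6 and 40.2 CPM. AKR1C1 and AKR1C2 are near-identical, so their low levels are uncertain. Among 16 genes of fluoropyrimidine and irinotecan action, 12 were on. TOP1, the target of irinotecan, had 358, 349 and 355 CPM, and TYMS, the target of fluorouracil, had 158, 171 and 169.8 CPM. DPYD, which degrades fluorouracil, had 4.002, 2.58 and 3.51 CPM.

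Transport of ions and water was partly on, with 16 of 31 genes. ATP1B3, a beta subunit of the sodium pump, stood at 59.6 ± 1.82 CPM per kb. CFTR, the apical chloride channel of crypt cells, had 0.474, 0.145 and 0.458 CPM, and ANO1, a calcium-activated chloride channel, had 107, 106 and 103 CPM. SLC26A3, the chloride exchanger of colonocytes, had 0.199, 0.178 and 0.137 CPM, and its relative SLC26A6 had 126, 112 and 116 CPM. Of the epithelial sodium channel, SCNN1A had 86.3, 83.4 and 85.8 CPM, SCNN1B had 0.0611, 0.242 and 0.183 CPM and SCNN1G had 0 counts. Of 15 carbonic anhydrases, 7 were on, CA2 highest at 16.1 ± 0.444 CPM per kb and CA9, the hypoxia-induced membrane form, at 3.31, 2.57 and 3.86 CPM.

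Among secreted factors, single members of the EGF family were high. Of 11 ligands, 8 were on, which is 72.7%, against 62.5% of all protein-coding genes. The list median was 0.458 CPM per kb, against 2.08 CPM per kb over all nuclear protein-coding genes. AREG, amphiregulin, stood at 159 ± 0.349 CPM per kb, EREG, epiregulin, at 83.9 ± 2.21 CPM per kb and TGFA at 28.5 ± 1.26 CPM per kb, all ligands of EGFR. EGF itself had 1.18, 1.598 and 1.02 CPM. Of 22 fibroblast growth factors, 6 were on and 11 absent, led per length by FGF19, the enterokine that restrains bile acid synthesis, at 37.5, 35.6 and 37.2 CPM. FGF19 signals through FGFR4, which was on as given above.

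Of 29 other growth factors, 17 were on. KITLG, the stem cell factor, was highest per length and had 703, 739.9 and 758 CPM, while the level of its receptor KIT was 0.0203 CPM on average. VEGFA had 131, 135 and 136 CPM, and HGF, the ligand of MET, and IGF1 had 0 counts. GAS6, the ligand of AXL, had 105, 103 and 105 CPM. Of 26 ligands of the TGF-beta superfamily, 11 were on. GDF15, a stress-induced hormone, was highest at 191 ± 4.51 CPM per kb, and BMP4 and TGFB1 stood at 24.6 ± 0.569 CPM per kb and 18.7 ± 0.907 CPM per kb. TGFB1 was the highest of the TGFB genes, with 0.491 CPM per kb for TGFB3 and 0.229 for TGFB2.

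Inflammatory mediators were few. Of 31 chemokines, 4 were on and 20 absent, against 62.5% on and 23.2% absent over all protein-coding genes. CXCL16, a membrane-anchored chemokine, was highest per length and had 58.8, 57.6 and 57.9 CPM, and CXCL8, the neutrophil attractant interleukin-8, had 12.3, 14.4 and 14.9 CPM. The interferon-induced chemokines CXCL10 and CXCL11 had 0 counts. Of 38 interleukins, interferons and TNF ligands, 7 were on. LIF, a cytokine of the IL-6 family, was highest per length and had 157, 148 and 144 CPM, and IL18, made by many epithelia, had 57.3, 57.2 and 53.3 CPM. IL6 and TNF had 0.0161 and 0.04305 CPM on average, and IL1B, IFNB1 and IFNG had 0 counts.

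Mucins were low, with 4 of 17 on and a median of 0.0162 CPM per kb. MUC3A, a membrane mucin with long repeats in which reads can be hard to place, was highest per length and had 21.7, 21.3 and 21.9 CPM, and MUC1 had 3.76, 2.18 and 2.29 CPM. MUC17 and MUC21 had 0 counts. No antimicrobial gene was on, while S100 genes of broad expression were high. In the joint list 11 of 29 genes were on and 13 absent. S100A6 stood at 155 ± 8.31 CPM per kb, S100A11 at 133 ± 5.28 CPM per kb and S100A10 at 99.7 ± 1.48 CPM per kb. S100A8 and S100A9, the calprotectin subunits of neutrophils, had 0 counts, and LCN2, lipocalin-2, had 0.718, 0.452 and 0.534 CPM.

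Matrix genes divided by family. Of 27 metalloproteinases and their inhibitors, 9 were on. The inhibitors TIMP1 and TIMP2 were highest at 89.7 ± 0.5495 CPM per kb and 56.4 ± 1.63 CPM per kb, and of the enzymes MMP15 and MMP14, both membrane-bound, led at 14.99 ± 0.651 CPM per kb and 5.195 ± 0.333 CPM per kb. MMP7, the metalloproteinase often raised in colon tumours, had 0.153, 0.307 and 0.351 CPM, and the gelatinases MMP2 and MMP9 had 0.0204 and 0.319 CPM on average. Of 32 genes of the plasminogen system and kallikreins, 17 were on. PLAU, the urokinase, stood at 23.3 ± 0.436 CPM per kb and its receptor PLAUR at 26.3 ± 0.582 CPM per kb, while plasminogen itself, PLG, had 0 counts. KLK6, KLK7, KLK8 and KLK10 were on, with 35.7, 33.6 and 33.8 CPM for KLK6.

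Of 23 laminin and basement membrane genes, 17 were on. LAMA5, the alpha chain of laminin-511 in colon basement membrane, was highest at 46.1 ± 2.12 CPM per kb, with its partners LAMB1 and LAMC1 at 13.9 ± 0.628 CPM per kb and 24.4 ± 0.518 CPM per kb. The chains of laminin-332 were uneven, with LAMB3 above LAMA3 22.4 ± 0.387 times per length. The ubiquitous type IV collagen genes COL4A1 and COL4A2 had 0.0458, 0.387 and 0.122 CPM and 0.275, 0 and 0.153 CPM, and COL4A5, whose product occurs in specialised basement membranes, had 41.8, 43.3 and 40.5 CPM.

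The 3 libraries lay close together. Pearson's r of log2 CPM over the genes on was 0.994 in each pair, and the median absolute log2 difference was 0.09 between libraries 1 and 2, 0.09 between 1 and 3 and 0.08 between 2 and 3. These are values across genes, which are not independent replicates. The median coefficient of variation (CV, the SD as a percent of the mean) was 5.14% over the genes on. Counting error alone sets a CV of 1 over the square root of the mean count. Its median was 2.35%, if each count were 1 independent fragment. A CV from 3 values tends to fall below the CV it estimates, so these medians compare only roughly. The value 4 was more frequent than 3 or 5, at 3974 times against 2352 and 1440, so a count may be less than a fragment. In that case counting error, and with it the limit set by 3 counts, would be larger and the spread beyond counting error smaller. By level the median CV was 12.2% at 1 to 10 CPM, 4.61% at 10 to 100, 2.56% at 100 to 1000 and 2.42% above 1000 CPM. The common biological CV of the edgeR model, 1 value fitted over 18070 genes for the spread beyond counting error, was 0.111 as a fraction. It was above the median CV of 5.14%, which includes counting error, so it does not describe a typical gene on. With no filter on low counts the common biological CV was 0.184.

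Ribosomal protein genes were lower in library 1. Cytosolic ribosomal protein genes took 4.34%, 4.71% and 4.72% of the counts in libraries 1, 2 and 3, and 81 of the 82 genes on were lowest in library 1. Their median log2 difference from the mean of the other libraries was -0.14 in library 1, 0.06 in library 2 and 0.08 in library 3. The same library was lower in genes of short transcripts in general. For nuclear protein-coding genes on, its median log2 difference was -0.11 for the 270 genes with a longest transcript of up to 1 kb, -0.06 at 1 to 2 kb, -0.01 at 2 to 4 kb, 0.02 at 4 to 8 kb and 0.04 above 8 kb. In libraries 2 and 3 the order was the other way, with 0.06 and 0.05 up to 1 kb and -0.02 in both above 8 kb. TMSB10, whose exons are short, had 474, 559 and 532 CPM, lowest in library 1, and FAT1, given above, was highest there. The source of this difference was not tested, and levels of short and long genes in library 1 carry it.

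Genes with a large spread were mostly genes whose exons overlap those of another gene, on the same or the opposite strand. Of 11785 genes with a mean of at least 5 CPM, 52 had a CV above 50%, and exons of 46 of these overlap exons of another gene in GENCODE release 29, against 50.2% of all 11785. All 10 genes of largest CV overlap another gene, and 4 of them are readthrough genes, which join the exons of 2 neighbours. BEST1, a chloride channel gene next to the ferritin gene FTH1, had 46.4, 0.856 and 0.946 CPM, high in library 1. FTH1 had 1179, 1186 and 1209 CPM, far above BEST1 in every library. TUBA1B-AS1, antisense to the tubulin gene TUBA1B, had 14.4, 18.02 and 213 CPM, high in library 3. There TUBA1B had 1400.1, 1442 and 1259.8 CPM, lowest in library 3, and the sum had a CV of 2.11%. ZC3H11A, a zinc finger gene within which the gene ZBED6 lies, had 226, 40.4 and 116 CPM, while ZBED6 had 54.5, 218 and 153 CPM. That pair ran in opposite order over the libraries and its sum had a CV of 4.03%.

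The other genes of largest CV were BIVM-ERCC5, SPECC1L-ADORA2A, RPL36A-HNRNPH2, NDUFC2-KCTD14, P2RY11, FBXO16 and LHFPL5. BIVM-ERCC5 had 19.3, 0.0323 and 13.4 CPM, nearly 0 in library 2, where its component ERCC5, a DNA repair nuclease, was highest with 20.7, 32.3 and 22.3 CPM. SPECC1L-ADORA2A had 10.1, 0 and 13.9 CPM, with 0 counts in library 2. FBXO16, an F-box gene, had 17.5, 4.94 and 5.74 CPM, high in library 1, and its overlapping neighbour ZNF395, a zinc finger gene, had 18.5, 92.2 and 80.6 CPM, low in library 1. Their sum still had a CV of 44.6%. P2RY11, a purinergic receptor gene, had 6.201, 5.34 and 21.3 CPM, and its neighbour EIF3G, an initiation factor gene, had 109.5, 116 and 123 CPM, both highest in library 3, with a CV of 11.8% for the sum and 5.74% for EIF3G alone. For RPL36A-HNRNPH2 the sum with RPL36A had a CV of 8.58%, against 7.03% for RPL36A alone, and for SPECC1L-ADORA2A the sum with SPECC1L had 6.08%, against 5.76% for SPECC1L alone. The pairs differed in whether the sum was steadier than the partner alone. How reads in overlapping exons were assigned is not given in the sources used here, and its part in these differences was not tested. Among genes of at least 5 CPM with a record and no such overlap, 3 of 5839 had a CV above 50%. The highest of those with a symbol, GPATCH4, a gene named after its values were seen, had 17.9, 9.83 and 33.4 CPM.

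**Figure D5:**
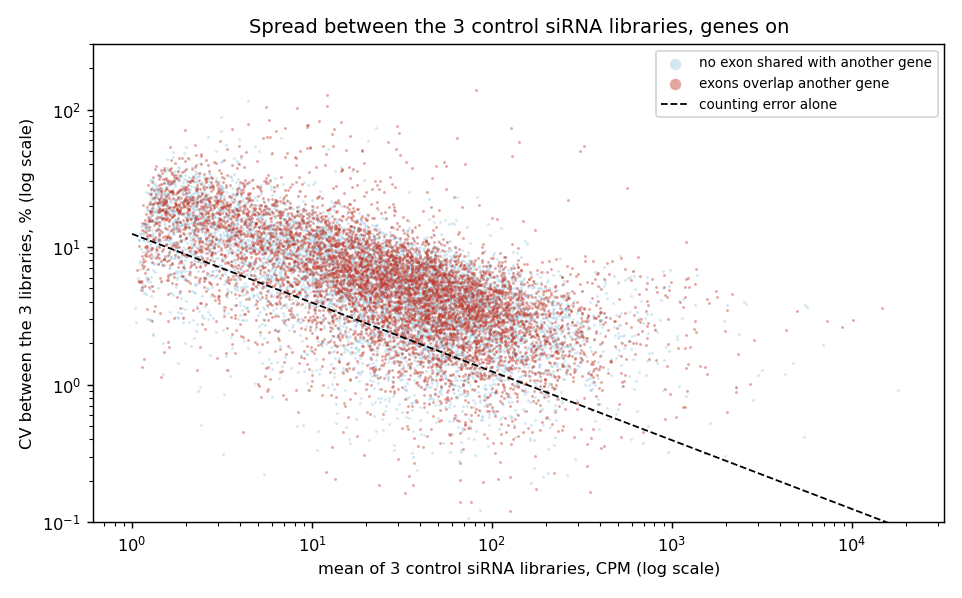
Coefficient of variation between the 3 control siRNA libraries (%, log axis) against mean level (CPM, log axis) for the genes on, in red where exons overlap another gene and in blue otherwise. The dashed line is 1 over the square root of the mean count, the CV set by counting error alone if each count were 1 fragment. The cloud falls with level, with a median of 12.2% at 1 to 10 CPM and 2.42% above 1000 CPM, and most points above 50% at 5 CPM or more are red. BEST1 is not drawn, since it was below 1 CPM in libraries 2 and 3.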

How the data were processed

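Gene counts in whole numbers were deposited for 9 libraries, 1 row per Ensembl identifier, and the labels call them raw counts. The genome build was hg19, per the submitters' processing notes, while no aligner, counting tool, annotation or strand setting is named in the sources used here. Among values of 1 to 40, 27.9% were multiples of 4. Remainders of 1, 2 and 3 on division by 4 made up 26.1%, 25.2% and 20.9%, so the excess over this range was slight. The value 4 itself occurred 3974 times, against 2352 for 3 and 1440 for 5, so a count may be less than a fragment. Every per-sample column was matched to a sample, and only the 3 control columns were used.

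Libraries were scaled by TMM in edgeR 4.0.16 (R 4.3.3), with factors of 1.005, 0.999 and 0.996, and counts per 1000000 (CPM) were computed from the scaled totals. Gene types and exon lengths came from GENCODE release 29 (GRCh38), which held 58254 of 61806 identifiers, with the union of annotated exons as length. Rows with no record of this release were kept. The common biological CV was estimated by edgeR over 18070 genes with an intercept only. On simulated counts of 18070 genes with a planted biological CV of 0.1, it returned 0.0997, and 172 of 200 genes planted with a CV of 0.8 were among the 200 of largest CV. No groups were compared and no p-value was computed. Promoter windows are from RefSeq. Tables and figures used Python 3.11.15, pandas 2.3.3, numpy 2.4.6 and matplotlib 3.10.9.

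The genes described and the 58 lists (1200 symbols, of which 1199 matched) were chosen with earlier results of these data known. Any list member could be named, with the 15 highest nuclear protein-coding genes per kb, the 10 highest by CPM, the highest mitochondrial and non-coding genes, and the 10 of largest CV at a mean of at least 5 CPM. Alternatives were plain library totals, DESeq2 1.42.0 size factors, thresholds of 0.5 and 2 CPM, of 1 CPM per kb and of 0.05 CPM, the longest transcript as length, no count filter, no mitochondrially encoded genes, and each library left out in turn. Some list members are not reported here.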

Additional observations from a re-analysis of the deposited data

How the results depend on the processing

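No paired analysis was possible because a single group of 3 libraries was described and no groups were compared. With plain library totals or DESeq2 size factors, the 14177 genes on, the 37998 absent genes and the 660 list genes on came to the same counts, and the levels of 1240 named genes moved by less than 1 SD. With each library left out in turn, genes on ranged over 14321 to 14359, absent genes over 38842 to 38999 and list genes on over 662 to 664. Both states require every library, so leaving a library out can only raise these counts, apart from small changes in scaling. The median CV ranged over 3.81% to 4.48%, with each CV from fewer values. The common biological CV ranged over 0.109 to 0.119 and the share of the 100 highest genes over 22.3% to 22.4%. Without mitochondrially encoded genes the 100 highest genes took 16.5% of the counts, against 22.3% with them. With no count filter the common biological CV was 0.184, against 0.111, with 31070 genes in the estimate in place of 18070. Genes on numbered 15500 at 0.5 CPM, 13005 at 2 CPM and 12456 at 1 CPM per kb. At 1 CPM per kb, 10 of 22 gut transcription factors, 0 of 14 goblet cell genes, 0 of 14 enteroendocrine genes, 1 of 10 tuft cell genes, 1 of 10 pluripotency genes, 7 of 35 xenobiotic genes, 5 of 11 EGF-family ligands and 1 of 17 mucins were on. At 2 CPM, 1 goblet cell gene, 0 enteroendocrine genes, 8 xenobiotic genes and 2 chemokines were on, and at 0.5 CPM, 2 endothelial and 2 blood cell genes. Taking the longest transcript as length raised levels by a median of 1.30 times and moved 626 of 1240 levels by more than 1 SD, so levels per kb depend on the length chosen. At this depth genes under 0.0484 CPM could not be told from 0.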
